A study of Mus musculus with 12 samples.

Results

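Gene expression in sorted mouse beta cells was compared between newborn animals at postnatal day 1 (P1, 3 samples) and embryos of late gestation (stage E18.5, 4 samples), which are 7 of the 12 samples of the series. Samples were placed by the age in their titles, every gene that passed the filter entered the comparison, and differences were coded as P1 minus E18.5. At both ages the animals were heterozygous for a Pdx1-GFP transgene, which puts green fluorescent protein (GFP) under the promoter of the pancreatic transcription factor gene Pdx1, and came from a cross with ICR, an outbred stock. Islets of Langerhans were taken apart into single cells with trypsin, GFP+ cells were sorted by flow cytometry, and their total RNA was amplified into biotin-labelled cRNA for Illumina arrays. The other 5 samples, of the same transgene and cross, came from P10 (2) and from adults of 5 weeks (3). They shared in the normalization, the filter, the choice of a gene's probe and the estimate of the spread. Later levels and a comparison of adults with P10 also came from them. The sort follows the activity of the Pdx1 promoter, which is known from beta cells but is not exclusive to them. The labels do not say whether the samples of an age came from separate litters or pools, and the p-values cover the spread among the arrays at hand, which may be technical.

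Birth replaces a steady supply of glucose through the placenta by intermittent feeding on milk that is rich in fat. Beta cells, which make and store insulin, still divide around birth, and their secretory response to glucose is known to be immature at that time. Insulin is folded in the endoplasmic reticulum (ER) with the help of chaperones and disulfide isomerases, many of whose genes share a promoter element that answers to protein load.

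Of the 25697 probes, 42.7% to 48.6% exceeded the background limit on each of the 7 arrays, and 9198 genes were tested. Levels are log2 intensities after background correction and quantile normalization, and levels of different genes cannot be ranked against each other. Across genes, which are not independent of each other, Pearson's r lay between 0.979 and 0.991 for pairs of the same age and between 0.973 and 0.981 for pairs of different ages. The first principal component of the 7 samples held 36.9% of the variance and placed all 3 P1 samples apart from all 4 E18.5 samples. Ins2, which encodes insulin, had log2 levels of 13.39, 13.48, 13.48 and 13.42 at E18.5 and 13.58 in each P1 sample, the top of the scale, where a change can be hidden (adjusted p = 0.41 by limma). Of the markers of other islet cells, Gcg (glucagon, alpha cells) lay between 11.55 and 13.21 at E18.5 and between 12.09 and 12.55 at P1, and Sst (somatostatin, delta cells) between 13.14 and 13.58 and between 13.24 and 13.39. The sorted samples therefore hold signal of alpha and delta cell genes at both ages, and in such bulk samples fewer cells of a type and less RNA per cell cannot be told apart.

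Between E18.5 and P1, 503 of the 9198 genes differed (5.47%, limma, Benjamini-Hochberg adjusted p under 0.05). At P1, 238 were higher (2.59%) and 265 lower (2.88%). Most changes were small, with a median size of 0.56 log2 units among the called genes, and 18 rose and 33 fell by at least 2-fold. The median of all genes was -0.01, and 1916 of the 9198 had an unadjusted p under 0.05 in limma. The groups did not overlap at 481 of the called genes, against 1851 of all genes tested (20.1%; P1 above E18.5 at 10.3% and below it at 9.85%). The balance of directions depended on the scaling, since median centring of the arrays gave 149 higher and 349 lower genes (29.9% higher against 47.3%), and the deposited values as log2 without scaling gave 206 higher and 369 lower (35.8% higher). The number of calls also depended on single samples, falling to 114 when P1 replicate 2 was left out, to 277 when it was P1 replicate 3, and to 223, 323 and 319 for E18.5 replicates 4, 2 and 3. All called genes that stayed in the test kept their direction in each of these fits.

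**Figure D1:**
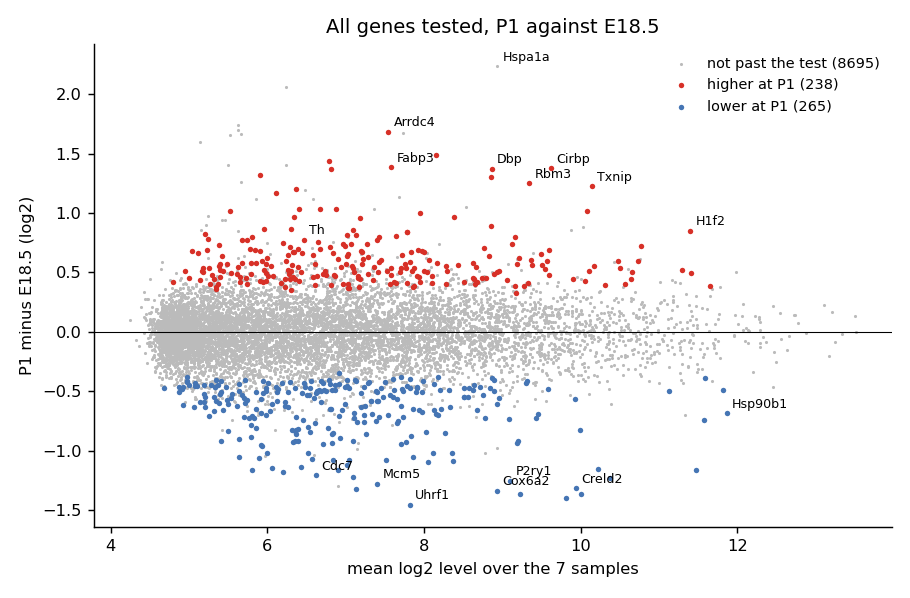
Each point is 1 of the 9198 genes tested, with its mean log2 level over the 7 samples on the horizontal axis and the difference P1 minus E18.5 in log2 units on the vertical axis. The 238 called genes in red lie above 0 and the 265 in blue below, up to 1.68 for Arrdc4 and down to -1.46 for Uhrf1, while Hspa1a, the highest point, did not pass the test.

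The broadest difference was a lower level of DNA replication genes at P1. Of 50 tested genes of replication and its supply of nucleotides, 31 fell, 19 did not pass and 0 rose, also at an unadjusted p under 0.05 in limma, against 2.88% of all genes that fell. The list's median difference was -0.67, beside -0.01 for all genes, and 49 of the 50 differences lay below 0. The P1 samples lay below all E18.5 samples at 40 of the 50 genes, against 9.85% of all genes. The falls took in loading of the helicase (Cdc6, Cdt1, Orc6), the helicase itself (Mcm2, Mcm4, Mcm5, Mcm6, Cdc45), its activating kinase (Cdc7), the polymerases (Pold1, Pole), the ligase (Lig1) and nucleotide synthesis (Tyms, Tk1, Rrm1, Rrm2).

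Mcm5, a subunit of the replicative helicase, had log2 levels of 7.60, 8.15, 7.96 and 8.10 at E18.5 and of 7.21, 6.25 and 6.57 at P1. Every P1 sample was below every E18.5 sample, although P1 replicate 1 came close. The difference was -1.28 ± 0.22 (SE), 2.42-fold lower (adjusted p = 0.0066). Cdc7, the kinase that fires replication origins, stood at 7.15, 7.09, 7.13 and 7.19 at E18.5, close to each other, and at 6.42, 5.50 and 5.90 at P1. It was 2.30-fold lower (-1.20 ± 0.17, adjusted p = 0.0033). Tyms, which makes thymidylate, went from 7.29, 7.42, 7.40 and 7.89 to 6.57, 6.24 and 6.32, and here the 3 P1 samples lay close together (-1.12 ± 0.16, adjusted p = 0.0036). Mcm10 and Clspn, which act at the fork, fell 2.26-fold and 2.22-fold (adjusted p of 0.0054 and 0.0057), with no overlap. Uhrf1, which brings the maintenance DNA methyltransferase to new DNA, had the largest fall of all genes, from 8.49, 8.65, 8.22 and 8.40 to 7.67, 6.38 and 6.90 (-1.46 ± 0.29, adjusted p = 0.011). Its partner Dnmt1 fell as well, by 0.66 ± 0.12 (adjusted p = 0.0078), whereas the de novo methyltransferase gene Dnmt3b rose by 0.50 ± 0.11 (adjusted p = 0.017). Dnmt3b was chosen after its value was seen.

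Not every replication gene followed. Pcna, the sliding clamp, was at 6.85, 6.28, 6.36 and 6.66 at E18.5 and 6.13, 5.96 and 6.26 at P1, without overlap but short of the threshold (-0.42 ± 0.16, adjusted p = 0.14). Mcm7 had the only difference above 0 in the list (0.04 ± 0.17), but its probe was above background in 1 of the 7 samples and cannot show a fall. Leaving out 1 sample ended the call of Uhrf1 (adjusted p = 0.079 without P1 replicate 2) and lowered the count of the list to 13 without P1 replicate 2. With the other samples left out in turn the count lay between 21 and 30. The calls of Cdc6, Cdc7, Cdt1, Clspn, Mcm4, Mcm10, Mcm5, Tk1 and Tyms held whichever single sample was left out (highest adjusted p of 0.049). Those of Mcm2, Pold1, Rrm1 and Rrm2 ended without P1 replicate 2, those of Lig1 and Pole without P1 replicate 2 or 3, and those of Cdc45, Orc6 and Mcm6 without any of 4 or 5 samples, the highest adjusted p being 0.15. Dnmt3b lost its call without P1 replicate 1 or 2 (highest 0.082).

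At later ages these genes were not uniformly lower than at P1. Uhrf1 had mean levels, from E18.5 through P1 and P10 to adults, of 8.44, 6.98, 8.32 and 5.75, and Mcm5 of 7.95, 6.68, 7.75 and 5.82. In both the P10 mean lay nearer to E18.5 than to P1. Averaged over the 50 genes, the samples stood at 6.77, 6.83, 6.64 and 6.83 at E18.5 and at 6.34, 5.94 and 6.05 at P1. The P10 samples followed with 6.73 and 6.54, and the adult samples lay between 5.72 and 5.96. Of both P10 samples, 1 lay within the E18.5 range of the list's mean and the other just below it, and both were above all P1 samples. The P10 against P1 difference uses the same P1 samples and is no separate check of the P1 level.

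**Figure D2:**
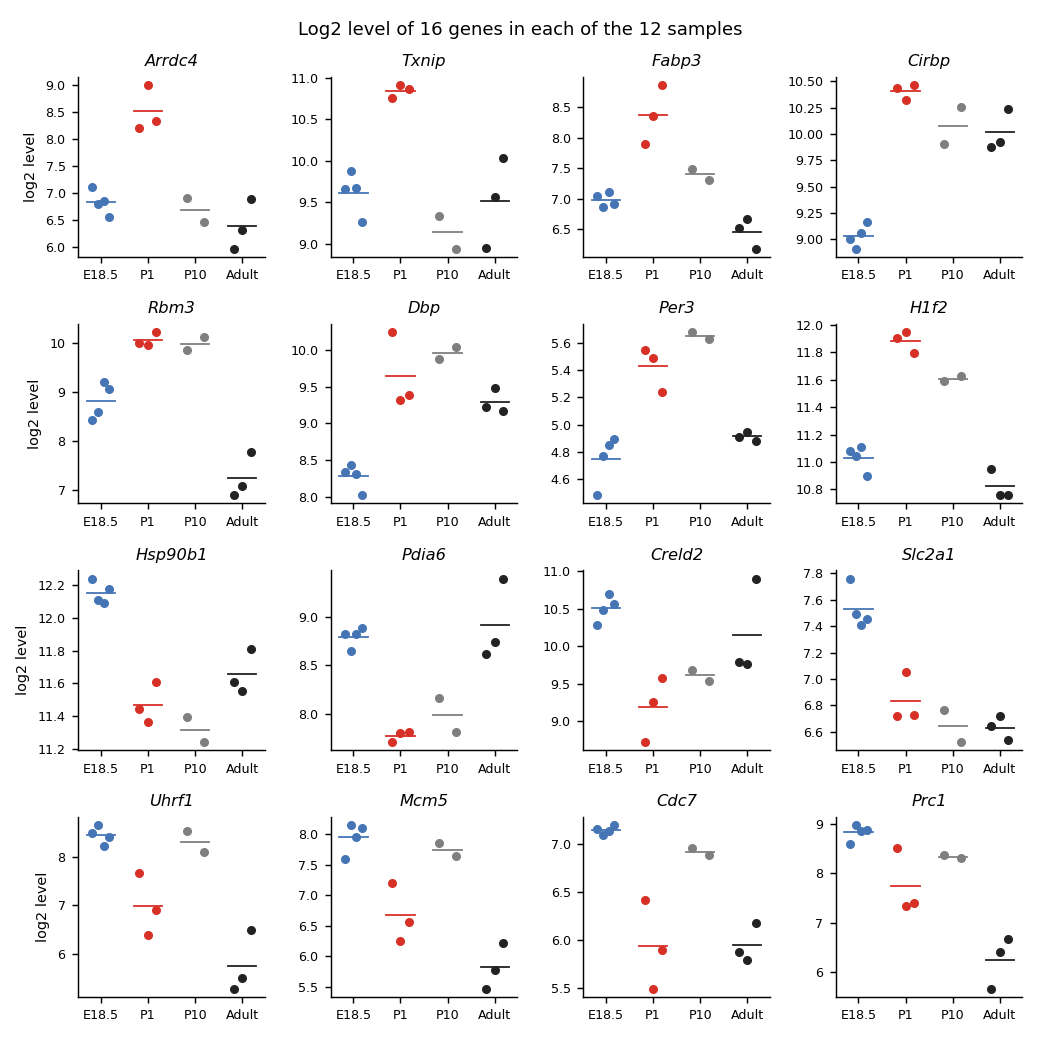
Each panel shows the log2 level of 1 gene in all 12 samples by age, points being samples and short lines group means, with a vertical scale of its own per panel. Mcm5, Cdc7 and Uhrf1 dip at P1 below both E18.5 and P10, while Arrdc4 and Txnip peak at P1 and Cirbp stays high after it.

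E2F factors drive many replication genes, and the promoters of the called replication genes were searched for 3 of their sites, TTTGGCGC, TTTCGCGC and TTTCCCGC, on both strands of the 250 bases before the start (RefSeq promoters, build GRCm38.p6). The sites may overlap each other. Of 28 called replication genes with a promoter entry, 5 held a site (17.9%), and of all 42 tested replication genes with an entry 7 did (16.7%), against 244 of 7500 tested genes (3.25%). Among all genes, the share was 8.58% for those called lower and 4.23% for those called higher. A window is shown for the helicase genes Mcm5 and Mcm6 and for Cdc6, which loads the helicase, with the site in capitals, as a description of where these letters stand.
Mcm5, chr8:75109336-75109383, plus strand: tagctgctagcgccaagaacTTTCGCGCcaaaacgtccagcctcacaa
Mcm6, chr1:128359725-128359772, minus strand: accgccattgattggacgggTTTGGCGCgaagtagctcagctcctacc
Cdc6, chr11:98907993-98908040, plus strand: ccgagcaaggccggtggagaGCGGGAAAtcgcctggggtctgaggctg
The Cdc6 site reads TTTCCCGC on the opposite strand. Cdc6 fell by 1.16 ± 0.21 (adjusted p = 0.0078) and Mcm6 by 0.92 (adjusted p = 0.024). Mcm7 also held a site, but its probe could not show a fall.

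Mitosis genes were lower as well, with less even samples. Of 37 tested genes of the spindle and of chromosome separation, 14 fell and 23 did not pass, against 2.88% of all genes that fell. There were 0 rises at the adjusted or the unadjusted threshold in limma, and the median was -0.58. Prc1, which bundles microtubules at cell division, stood at 8.60, 8.98, 8.87 and 8.88 at E18.5 and at 8.51, 7.33 and 7.40 at P1. P1 replicate 1 was thus just below the lowest E18.5 sample, and the other P1 samples were more than 1 unit lower. Anln, a scaffold of the contractile ring, showed the same arrangement, with 7.49, 7.49, 7.51 and 7.53 against 7.15, 6.01 and 6.11 (-1.08 ± 0.22, adjusted p = 0.014). Cdk1, the kinase that starts mitosis, fell 2.10-fold (-1.07 ± 0.21, adjusted p = 0.012), and Ncaph, a condensin subunit, fell 2.03-fold (-1.02 ± 0.19, adjusted p = 0.0082). The mean over the 37 genes was 6.46, 6.58, 6.45 and 6.61 at E18.5 and 6.36, 5.68 and 5.74 at P1.

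The count of mitosis genes rested on single samples. Leaving out P1 replicate 2 brought it to 0, P1 replicate 3 to 4, E18.5 replicate 4 to 6 and E18.5 replicate 2 to 9, whereas leaving out P1 replicate 1 raised it to 25. The calls of Anln, Prc1, Cdk1 and Ncaph all ended without P1 replicate 2, with adjusted p between 0.057 and 0.16. Of 18 tested genes of the G1 phase, Cdk2 alone passed, against 2.88% of all genes that fell. It differed by -0.72 ± 0.14 (adjusted p = 0.010), and its call ended without P1 replicate 2 (adjusted p = 0.069). In this list 14 differences lay below 0 and 9 were lower at an unadjusted p under 0.05, and the count of 1 became 3 with unscaled values, 4 under median centring and 6 with array weights. Ccnd2, the main D-type cyclin of beta cells, had a difference of -0.45 ± 0.14 that did not pass (adjusted p = 0.086).

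Histone genes moved in both directions. Of 42 tested, 9 fell, 3 rose and 30 did not pass the test, with 33 differences below 0. Among all genes, 2.88% fell and 2.59% rose. The 9 falls became 0 without P1 replicate 2 and 1 without P1 replicate 3. The 3 rises became 1 when either of these samples, or E18.5 replicate 3 or 4, was left out, and also under median centring. The falls were all genes of histone H2A, among them H2ac21 at 8.29, 7.70, 7.03 and 7.76 against 6.97, 5.94 and 6.23, 2.49-fold lower (-1.32 ± 0.25, adjusted p = 0.011). The P1 samples lay below all E18.5 samples at only 3 of the 42 genes, against 9.85% of all genes. The groups thus overlapped at most of the 9 falls. In H2ac15 and H2ac7, for example, E18.5 replicate 3 was below P1 replicate 1. H1f2, a linker histone, rose instead, from 11.08, 11.04, 11.11 and 10.90 to 11.90, 11.95 and 11.80, with no overlap and little spread (0.85 ± 0.10, 1.80-fold, adjusted p = 0.00097). H3c13 (0.43 ± 0.10, adjusted p = 0.028) and H3c14 (0.45 ± 0.12, adjusted p = 0.046) rose less. Copies of a histone gene are nearly identical, so a probe may read several of them, and these calls are uncertain as to the single gene. The calls of H2ac21, H2ac15 and H2ac7 ended without P1 replicate 2 (adjusted p from 0.075 to 0.10), and those of H2ac15 and H2ac7 also without P1 replicate 3. The call of H3c13 ended without any of 4 samples and that of H3c14 without any of 6 (highest adjusted p of 0.096 and 0.17), and both ended under median centring, while H1f2 kept its call throughout.

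Genes of protein folding in the ER were lower at P1. Of 38 tested, 7 fell and 31 did not pass, against 2.88% of all genes that fell. There were 0 rises (0 also at an unadjusted p under 0.05 in limma), a median of -0.24 and 35 differences below 0. The 7 were the chaperone genes Hsp90b1 and Hyou1, the disulfide isomerase genes Pdia6 and Pdia4, the prolyl isomerase gene Fkbp11, Creld2, whose product assists folding, and Atf6b, a membrane-bound stress factor. Hsp90b1, the ER member of the HSP90 family, stood at 12.24, 12.11, 12.09 and 12.17 at E18.5 and at 11.44, 11.36 and 11.61 at P1. Both groups were narrow, and the difference of -0.68 ± 0.10 made it 1.61-fold lower (adjusted p = 0.0048). Pdia6 was at 8.83, 8.65, 8.82 and 8.89 and then at 7.71, 7.80 and 7.81, 2.03-fold lower with tight groups (-1.02 ± 0.16, adjusted p = 0.0054). Creld2 had the largest fall of the list, from 10.28, 10.48, 10.70 and 10.56 to 8.72, 9.26 and 9.58 (-1.32 ± 0.25, 2.49-fold, adjusted p = 0.0095).

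Hspa5, which encodes the main ER chaperone BiP, was at 8.91, 8.76, 9.0 and 9.35 and then at 7.97, 8.19 and 9.02. P1 replicate 3 lay within the E18.5 range, and the difference of -0.61 ± 0.21 did not pass (adjusted p = 0.10). Xbp1, the transcription factor of this pathway, differed by -0.07 ± 0.11 (adjusted p = 0.77), and Ddit3, a marker of unresolved ER stress, by -0.58 ± 0.18 (adjusted p = 0.080). Of 46 tested genes of transport into and out of the ER, Sec61b, a subunit of the translocation channel, was the only call (-0.73 ± 0.17, adjusted p = 0.024). That count is near the 2.88% of all genes that fell. The list median was -0.15, and at an unadjusted p under 0.05 in limma 12 were lower and 0 higher, against 1916 of all 9198 genes. The count of the folding list fell to 3 when either P1 replicate 1 or 2 was left out and to 4 when E18.5 replicate 4 was. The calls of Hsp90b1, Pdia6 and Creld2 held without any single sample (highest adjusted p of 0.047). Those of Pdia4, Fkbp11, Sec61b, Hyou1 and Atf6b ended without P1 replicate 1 or 2, and all of these but Pdia4 also without E18.5 replicate 4 (highest adjusted p of 0.22, for Hyou1).

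The promoter element of these genes consists of CCAAT, 9 bases of any kind and CCACG, on either strand. It stood within 250 bases before the start of 12 of 7500 tested genes (0.16%), of which 9 belong to the 34 ER folding genes with an entry (26.5%). It was in 4 of 233 genes called lower at P1 (1.72%) and in 0 of 189 called higher. Among the called folding genes, Creld2, Hsp90b1 and Pdia6 held it, 3 of 6 with an entry, and their windows are shown with that of Hspa5, the element in capitals.
Creld2, chr15:88819500-88819558, plus strand: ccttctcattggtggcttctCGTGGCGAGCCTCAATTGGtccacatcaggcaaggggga
Hsp90b1, chr10:86705618-86705676, minus strand: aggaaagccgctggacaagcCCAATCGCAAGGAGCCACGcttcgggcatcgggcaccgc
Hsp90b1, chr10:86705513-86705571, minus strand: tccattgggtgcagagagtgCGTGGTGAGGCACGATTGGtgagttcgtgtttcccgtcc
Pdia6, chr12:17266471-17266529, plus strand: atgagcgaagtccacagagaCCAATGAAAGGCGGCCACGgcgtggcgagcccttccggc
Hspa5, chr2:34772005-34772063, plus strand: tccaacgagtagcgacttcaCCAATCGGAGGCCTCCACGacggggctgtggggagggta
Each run is written 5′ to 3′ along the gene, so the windows of Creld2 and the second of Hsp90b1 carry the element on the opposite strand. Other holders did not pass the test, such as Calr (-0.32, adjusted p = 0.50) and Dnajc3 (-0.29, adjusted p = 0.28), so the element and the call did not coincide.

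The largest rise among the genes that passed the test was that of a glucose-regulated gene, Arrdc4. Arrdc4 and Txnip encode alpha-arrestins that glucose induces through the transcription factor ChREBP, the product of Mlxipl, with its partner Mlx. Arrdc4 stood at 7.11, 6.79, 6.86 and 6.55 at E18.5 and at 8.20, 8.99 and 8.34 at P1, more than 1 unit apart at the nearest samples (1.68 ± 0.22, 3.21-fold, adjusted p = 0.0031). Txnip went from 9.65, 9.87, 9.67 and 9.27 to 10.76, 10.91 and 10.86 (1.23 ± 0.21, 2.34-fold, adjusted p = 0.0066). At P10 Arrdc4 had a mean of 6.69 and Txnip of 9.14, each below its E18.5 mean of 6.83 and 9.62. Rgs16, a brake on G protein signals that glucose is also known to induce in islets, rose 2.80-fold (1.49 ± 0.26, adjusted p = 0.0074) and stayed at a mean of 8.52 at P10.

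Of the 16 tested genes of glucose response, 3 rose, 1 fell and 12 did not pass the test, with a median of 0.14 and 13 differences above 0. Among all genes, 2.59% rose and 2.88% fell. In the list, 1 gene was below background in all 7 samples. At an unadjusted p under 0.05 in limma the list had 5 higher and 2 lower. Elovl6, which lengthens fatty acids and is also a ChREBP target, was the fall (-0.61 ± 0.11, adjusted p = 0.0080), from 7.29, 7.16, 7.27 and 7.31 to 6.83, 6.60 and 6.52. Mlxipl (0.20, adjusted p = 0.58), Mlx (0.12, adjusted p = 0.70) and Pklr, the liver-type pyruvate kinase gene (0.16, adjusted p = 0.55), did not pass. An E-box, CACGTG, as bound by ChREBP and by clock factors, stood within 250 bases of the start in 749 of 7500 tested genes (9.99%), including 3 of 12 glucose response genes with an entry (25.0%) and 3 of 14 clock genes (21.4%). Arrdc4 was the only holder among 4 called glucose response genes with an entry, and the other holders of that list, Mlx and Mlxipl, did not pass. The Arrdc4 window is shown with the E-box in capitals.
Arrdc4, chr7:68749406-68749451, minus strand: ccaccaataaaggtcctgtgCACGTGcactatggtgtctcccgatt
The share among genes called higher at P1 was 8.99%, below that of all genes.

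Few genes of energy metabolism passed the test. Slc2a1, a glucose transporter known as an oxygen-responsive gene, fell from 7.76, 7.50, 7.41 and 7.45 to 6.72, 7.05 and 6.73 (-0.70 ± 0.12, 1.62-fold, adjusted p = 0.0075). It was 1 of 2 calls among 17 glycolysis genes, both lower, against 2.88% of all genes that fell. The other was Gapdh (-0.39 ± 0.10, adjusted p = 0.045), a call that ended when any sample but P1 replicate 1 was left out. At an unadjusted p under 0.05 in limma, 4 glycolysis genes were higher and 4 lower, against 1916 of all 9198 genes. Ldha, which makes lactate, had a difference of -0.74 ± 0.27 with overlapping samples (adjusted p = 0.12). P4ha1, a collagen prolyl hydroxylase and oxygen-responsive gene, fell by 0.52 (adjusted p = 0.030) but was above background in 1 of 3 P1 samples, and it lost its call without any of 5 samples (highest adjusted p of 0.12). Slc2a1 and P4ha1 were the only calls among 19 tested genes of the hypoxia list, against 2.88% of all genes that fell. Of the 19, 10 had differences above 0, with a median near 0. At an unadjusted p under 0.05 in limma 4 were higher and 3 lower. In limma no gene passed among 32 of the citrate cycle and pyruvate entry or among 32 of complex I. Of them, 5 and 6 had an unadjusted p under 0.05, the 6 of complex I all lower, against 1916 of all 9198 genes. The list medians were -0.02 and -0.13.

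Fatty acid genes had 4 rises and 0 falls among 31 tested, with a median of 0.15 and 26 differences above 0, against 2.59% of all genes called higher. Fabp3, a fatty acid binding protein best known from heart, stood at 7.05, 6.87, 7.11 and 6.91 and then at 7.90, 8.35 and 8.86. The P1 samples spread by almost 1 unit yet all lay above E18.5 (1.38 ± 0.18, 2.61-fold, adjusted p = 0.0031). Slc25a20, which carries acylcarnitine into mitochondria, went from 7.09, 7.31, 7.59 and 7.24 to 8.05, 8.02 and 8.26 (0.81 ± 0.16, 1.75-fold, adjusted p = 0.011). Acadvl, the first dehydrogenase for very long chains, rose by 0.57 ± 0.12 (adjusted p = 0.012), and Eci2, an isomerase for unsaturated chains, by 0.41 ± 0.11 (adjusted p = 0.039). Cpt2, the inner carnitine transferase, had a difference of 0.46 ± 0.13 that did not pass (adjusted p = 0.060). The count of 4 became 2 without P1 replicate 2. Acadvl lost its call without P1 replicate 2 (adjusted p = 0.085) and Eci2 without any of the 7 samples (0.056 to 0.13). Fabp3 had means of 7.40 at P10 and 6.46 in adults, and Slc25a20 had means of 7.90 and 7.78.

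**Figure D3:**
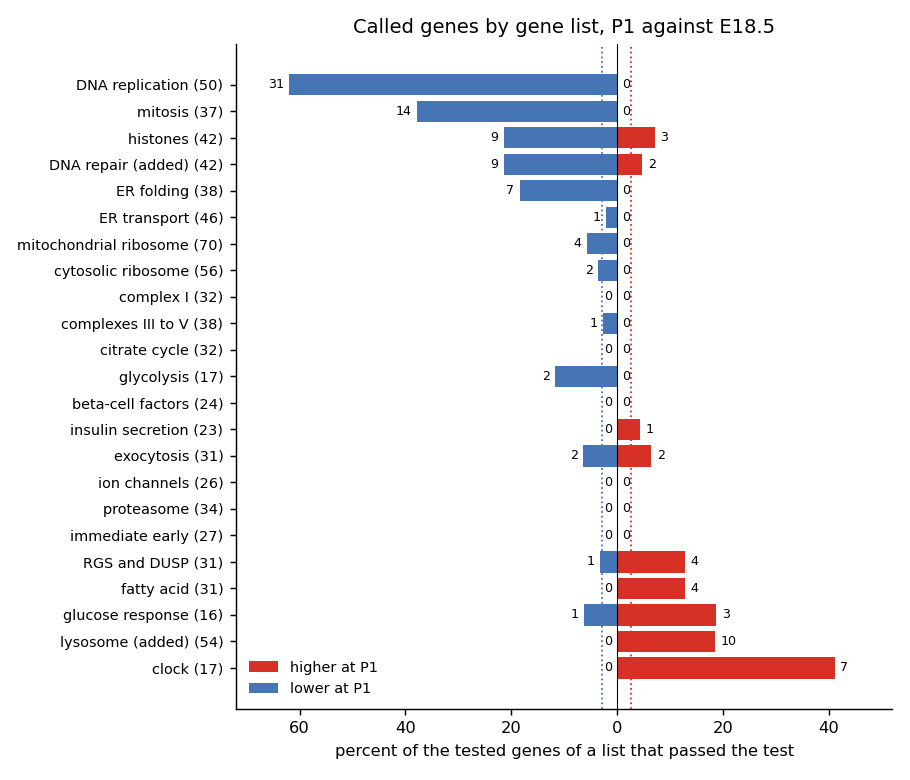
Bars give the percent of the tested genes of each list that were called higher (red, to the right) or lower (blue, to the left) at P1, with the number of called genes beside each bar and the number tested in brackets. Dotted lines mark the 2.59% and 2.88% of all genes called in each direction, and the lists marked as added were drawn up after values were seen.

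Clock genes had 7 rises and 0 falls among 17 tested, with a median of 0.39, against 2.59% of all genes called higher. The 7 were Dbp, Tef, Nr1d1 and Nr1d2, transcription factor genes driven by the core clock, the period gene Per3, the repressor gene Ciart and the kinase gene Csnk1d. Dbp, a factor whose daily rhythm follows the core clock, stood at 8.34, 8.43, 8.31 and 8.02 and then at 10.24, 9.31 and 9.39 (1.37 ± 0.19, 2.59-fold, adjusted p = 0.0033). P1 replicate 1 was the highest, and the other P1 samples were also clear of E18.5. Tef, its close relative, went from 7.13, 6.92, 6.46 and 6.58 to 7.80, 7.70 and 7.69 (0.96 ± 0.16, adjusted p = 0.0064). Per3 went from 4.48, 4.77, 4.85 and 4.89, with 2 of 4 samples above background, to 5.56, 5.49 and 5.24 (0.68 ± 0.12, adjusted p = 0.0067). Nr1d1, the repressor REV-ERB alpha, was at 6.88, 5.53, 5.41 and 5.60 and then at 7.70, 6.82 and 6.64, so that E18.5 replicate 1 reached into the P1 range (1.20 ± 0.32, adjusted p = 0.044).

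The other arms of the clock did not pass. Arntl, the core activator BMAL1, whose rhythm runs opposite to that of Nr1d1 in many tissues, lay at 6.27, 6.38, 6.49 and 6.02 and then at 5.49, 5.81 and 5.93, without overlap but short of the threshold (-0.55 ± 0.17, adjusted p = 0.070). Nfil3, which competes with Dbp at the D-box, had a difference of -0.59 ± 0.21 (adjusted p = 0.12). Per1, Per2 and Clock differed by -0.02, 0.06 and -0.13 (adjusted p of 0.97, 0.83 and 0.59). The time of day of sampling is not given in the sources used here, so time of day and age cannot be told apart for these genes. The count of the clock list was 4 without P1 replicate 2 and 5 to 8 with another sample left out, and the call of Ciart ended without P1 replicate 2 (adjusted p = 0.062). Dbp, Tef, Per3 and Nr1d2 kept their calls with any sample left out, whereas Nr1d1 and Csnk1d each lost theirs without any of 6 of the 7 samples (highest adjusted p of 0.16 and 0.21). Both also lost it under median centring. Per3, alone of 14 clock genes with an entry, held the D-box TTATGTAA, at 2 places. The D-box stood in 42 of 7500 tested genes (0.56%), in 1 of 189 called higher (0.529%) and in 3 of 233 called lower (1.29%). Ciart held the E-box at 3 places and Tef at 1 in each of 2 promoter entries, and Per1, which did not pass, held it too. The windows show 1 of the E-boxes each for Ciart and Tef in capitals, and the Ciart window holds another in lower case.
Per3, chr4:151044843-151044890, minus strand: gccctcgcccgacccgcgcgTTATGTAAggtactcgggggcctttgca
Per3, chr4:151044796-151044843, minus strand: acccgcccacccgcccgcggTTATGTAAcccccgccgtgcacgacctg
Ciart, chr3:95882261-95882306, minus strand: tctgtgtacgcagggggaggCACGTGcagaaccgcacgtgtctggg
Tef, chr15:81802526-81802571, plus strand: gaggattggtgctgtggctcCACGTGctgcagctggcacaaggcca
The second element of Per3 and the site shown for Tef end 151 and 122 bases before the start.

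Cirbp and Rbm3 encode RNA-binding proteins that mild cold induces, and both rose. Cirbp stood at 9.0, 8.91, 9.06 and 9.16 at E18.5 and at 10.44, 10.33 and 10.46 at P1, with the smallest adjusted p of all genes (1.38 ± 0.12, 2.60-fold, adjusted p = 0.00011). Rbm3 went from 8.42, 8.58, 9.20 and 9.05 to between 9.96 and 10.22 in all 3 P1 samples (1.25 ± 0.21, adjusted p = 0.0066). Both remained high at P10, with means of 10.08 and 9.98. In adults they parted, with means of 10.02 and 7.25, and adults were lower than P10 in Rbm3 (-2.74, adjusted p = 1e-05) but not detectably so in Cirbp (-0.07, adjusted p = 0.82).

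Heat shock genes held no rise past the test. Of 33 tested, Chordc1, a partner of HSP90, fell from 8.12, 8.05, 8.16 and 8.10 to 6.93, 7.33 and 7.22 (-0.95 ± 0.14, adjusted p = 0.0035), and no other gene passed. These counts are near the 2.59% of all genes that rose and the 2.88% that fell. At an unadjusted p under 0.05 in limma, 3 of the 33 were higher and 6 lower. Hspa1a, the inducible HSP70 gene, had the largest difference of all genes tested, 2.24 ± 0.78, with 5.96, 9.25, 9.99 and 6.70 at E18.5 and 10.64, 10.19 and 9.80 at P1. Its E18.5 samples differed by about 4 units among themselves and overlapped P1, so the test did not pass (adjusted p = 0.11). In limma, 0 of 27 immediate early genes, which respond to handling and dissociation, passed. At an unadjusted p under 0.05 there were 2, against 1916 of all 9198 genes. Fos was at 12.22 to 12.90 at E18.5 and 12.22 to 12.45 at P1.

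Among regulators of signalling, 4 of 31 tested RGS and DUSP genes rose and 1 fell, against 2.59% and 2.88% of all genes. Dusp26, a phosphatase gene, stood at 6.45, 6.07, 6.17 and 6.0 and then at 7.50, 7.79 and 7.53 (1.43 ± 0.26, 2.70-fold, adjusted p = 0.0089). Dusp4, which ends ERK signals in the nucleus, rose by 0.67 ± 0.12 (adjusted p = 0.0080), and Dusp16 by 0.44 (adjusted p = 0.032). Rgs4, another G protein brake, fell by 0.58 (adjusted p = 0.040), opposite to Rgs16. The 4 rises became 1 without P1 replicate 2. The calls of Dusp26 and Dusp4 ended without P1 replicate 2 (adjusted p of 0.055 and 0.052), and those of Dusp16 and Rgs4 ended without any of 5 and 6 of the 7 samples. P2ry1, a receptor for extracellular ADP, fell from 9.81, 9.54, 9.52 and 9.67 to 8.73, 8.43 and 7.98 (-1.25 ± 0.23, 2.38-fold, adjusted p = 0.0094). Rasgrf1, an imprinted exchange factor gene of Ras, rose from 7.95, 8.0, 8.24 and 7.67 to 9.03, 8.95 and 8.82 (0.97 ± 0.13, adjusted p = 0.0031). It was the only call among 24 imprinted genes, against 2.59% of all genes called higher.

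Few genes of beta-cell identity and of insulin secretion passed the test. In limma, 0 of 24 tested transcription factor genes passed. An unadjusted p under 0.05 was found for 5 (2 higher, 3 lower), against 1916 of all 9198 genes. Pdx1 itself stood at 8.84, 8.86, 9.13 and 9.13 and then at 8.91, 8.69 and 9.07 (-0.10 ± 0.13, adjusted p = 0.72), Nkx6-1 differed by -0.27 ± 0.13 (adjusted p = 0.25) and Neurod1 by 0.09 ± 0.13 (adjusted p = 0.75). Mafa, which marks mature beta cells, was between 4.97 and 5.49 in all 7 samples (-0.10 ± 0.22, adjusted p = 0.85). These levels lie near the low end of the scale, where a change can be compressed. Ucn3, another gene of maturity, was at 6.60, 6.49, 6.92 and 6.53 and then at 6.80, 7.43 and 7.02 (adjusted p = 0.12), before a mean of 9.75 at P10. Of 23 secretion genes, Pcsk1n alone passed, against 2.59% of all genes called higher. It encodes an inhibitor of prohormone convertase (0.56 ± 0.14, adjusted p = 0.030), and its call ended without any of 5 samples. In the secretion list 15 differences lay above 0. At an unadjusted p under 0.05 in limma 5 of its genes were higher and 2 lower. The glucose transporter gene Slc2a2 differed by -0.04 ± 0.15 (adjusted p = 0.92).

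In the exocytosis list of 31, Vamp2 and Rab3b rose while Sytl4 and Cadps fell, against 2.59% and 2.88% of all genes. Each of the 4 differences was between 0.45 and 0.57 in size and each call ended without any of 5 or more of the 7 samples. At an unadjusted p under 0.05 in limma, 8 of the 31 were higher and 7 lower, against 1916 of all 9198 genes. Among peptide genes, Pdyn, the precursor of dynorphins, stood at 6.34, 6.88, 6.0 and 6.51 and then at 5.58, 5.02 and 5.62 (-1.02 ± 0.25, adjusted p = 0.030), before it reached a mean of 10.79 in adults. Sct, which encodes secretin, fell by 0.54 (adjusted p = 0.022). The call of Pdyn ended without any of 4 samples (highest adjusted p of 0.16) and that of Sct without any of 5 (highest 0.10). Npy, a peptide of immature beta cells, differed by -0.70 ± 0.28 without overlap and did not pass (adjusted p = 0.17). Th, the rate-limiting enzyme of catecholamine synthesis, rose from 6.20, 6.06, 6.12 and 6.16 to 6.83, 6.99 and 6.91, with both groups narrow (0.77 ± 0.11, 1.71-fold, adjusted p = 0.0035). It was listed as a neural marker, and the other 4 tested genes of that list did not pass.

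The remaining largest changes fell outside these groups. Haghl, related to hydroxyacylglutathione hydrolase, rose from 8.36, 8.35, 8.28 and 8.18 to 9.72, 9.61 and 9.45 with little spread (1.30 ± 0.12, 2.46-fold, adjusted p = 0.00020). Sspn, a membrane protein of the dystrophin complex, and Mboat2, a lysophospholipid acyltransferase, each rose 2.05-fold (adjusted p of 0.0034 and 0.0057). Rnase4, a secreted ribonuclease, rose 2.03-fold (adjusted p = 0.0066). Defb1, a defensin, rose 2.25-fold with 6.06, 7.07 and 7.22 at P1, and its call ended without P1 replicate 2 (adjusted p = 0.075). Dmrtc1a rose 2.04-fold, but P1 replicate 1 at 7.85 stood more than 1 unit above the other P1 samples, and the call ended without E18.5 replicate 4 (adjusted p = 0.058). Olfr788, annotated as an olfactory receptor, and Cox6a2, a muscle-type subunit of cytochrome c oxidase that fell 2.53-fold (adjusted p = 0.045), each lost the call without any of 5 and 6 samples. Tcf19 and Pbk, both linked to proliferation, fell 2.24-fold and 2.13-fold and lost the call without P1 replicate 2 or 3, Pbk also without E18.5 replicate 4.

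Adults against P10 shares no sample with P1 against E18.5, and 208 of the 503 genes passed in both. Both comparisons came from 1 fit and shared each gene's variance estimate, the normalization and the filter. A gene of small variance passes both more easily, so the shares below are descriptions and no independent check. Of the 265 genes lower at P1, 81 were lower again in adults (30.6%) and 42 were higher (15.8%), against 7.4% and 6.08% of all genes called lower and higher in adults. Of the 238 genes higher at P1, 71 were lower in adults (29.8%) and 14 were higher (5.88%). As shares of the adult lists, genes higher at P1 made up 10.4% of those lower in adults and 2.50% of those higher, and genes lower at P1 made up 11.9% and 7.51%. Of the 81 genes lower in both comparisons, 24 belonged to the replication list, 32 of whose 50 genes were lower in adults. Genes that turned included Pdia6, higher in adults by 0.93 (adjusted p = 0.0049), Cox6a2 by 2.09 (adjusted p = 0.0051) and Pdyn by 3.65 (adjusted p = 4.4e-06). Of the early rises, Fabp3, Rasgrf1 and Rbm3 had adult minus P10 differences of -0.94, -1.52 and -2.74, all past the test.

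**Figure D4:**
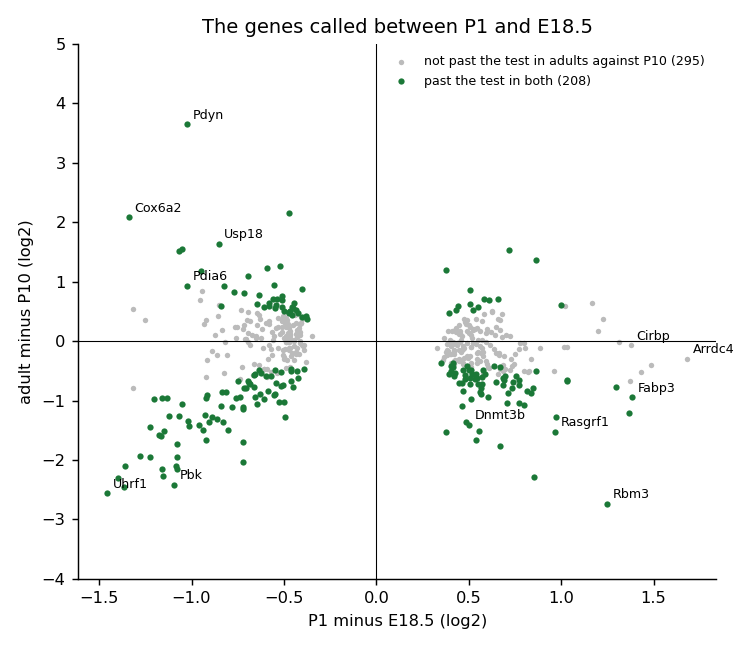
Each point is 1 of the 503 genes called between P1 and E18.5, with P1 minus E18.5 on the horizontal axis and adult minus P10 on the vertical axis. Both are in log2 units, from separate samples but the same fit. The 208 green genes passed both tests, and they fall into 81 lower in both, 42 lower then higher, 71 higher then lower and 14 higher in both.

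Markers of other cells varied among the samples. Of 32 tested acinar markers, genes of the enzyme-secreting pancreas, 29 had differences above 0 with a median of 0.88. Of the 32, 4 were below background in all 7 samples and passed the filter only through P10 and adults. The sign of their differences says little. In limma 0 rose past the test (5 at an unadjusted p under 0.05), and Bhlha15, a transcription factor gene, fell (-0.69 ± 0.18, adjusted p = 0.044), a call that ended without any of 6 of the 7 samples. The mean level of the 32 markers was 6.07, 5.49, 4.89 and 5.03 at E18.5 and 5.23, 6.20 and 7.02 at P1, so the groups overlapped. With that mean as a term in the fit, an alternative added after seeing the data, 226 genes were called, all 503 main calls kept their direction, and the lists gave 25 replication, 4 mitosis, 3 histone and 5 ER folding genes lower and 4 clock genes higher. Of 13 endothelial markers 1 and of 14 stromal markers 0 had a difference above 0, with medians of -0.43 and -0.35. Neither list held a call, and each had 1 gene at an unadjusted p under 0.05. The stromal mean was 4.88, 6.60, 6.33 and 5.18 at E18.5 and 4.88, 5.09 and 6.22 at P1. Alpha markers (7 tested, median -0.18), delta, PP and epsilon markers (6, -0.03), duct (13, 0.08), immune (13, -0.18), progenitor (14, -0.05) and erythroid markers (4, -0.05) held no call. At an unadjusted p under 0.05 they had 2, 0, 1, 3, 3 and 0 genes in this order, and of the haemoglobin genes among them Hba-a1 lay between 5.77 and 9.05 in the 7 samples and Hbb-b2 between 4.2 and 5.21. The part of these markers in the results, beyond the acinar term, was not tested.

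**Figure D5:**
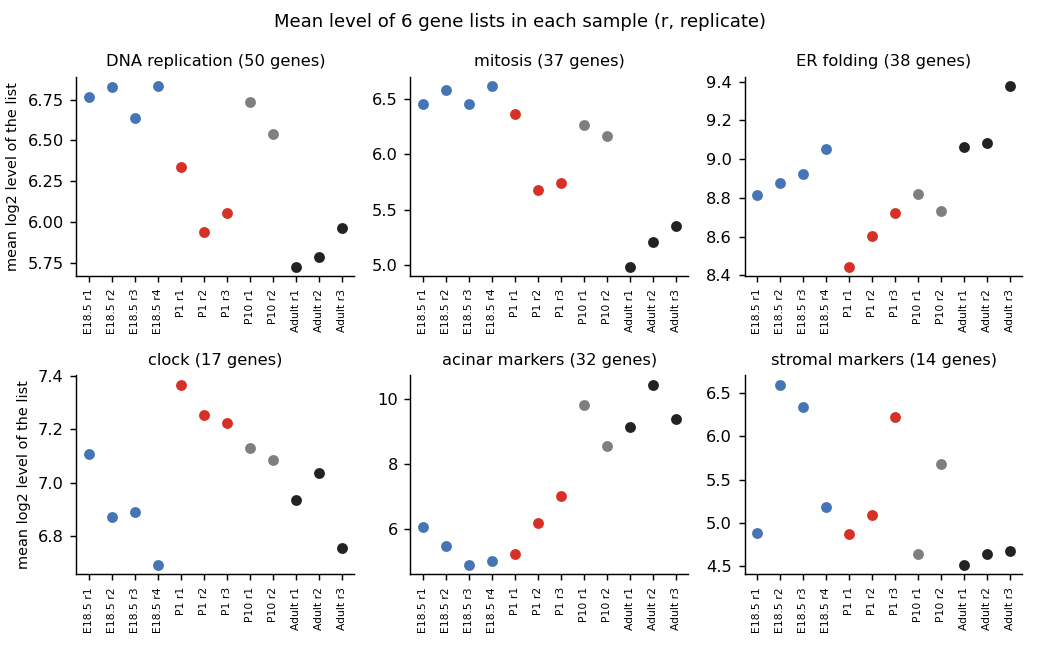
Points are the mean log2 level of 6 gene lists in each of the 12 samples, coloured by age, with a vertical scale of its own per panel. Replication, ER folding and clock separate P1 from E18.5, and in the mitosis panel P1 replicate 1 lies close to E18.5. In the acinar and stromal panels E18.5 and P1 overlap.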

How the data were processed

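RNA of sorted beta cells was measured on Illumina arrays in 12 samples, of which the 4 of E18.5 and the 3 of P1 were compared. The values used are the intensity of 25697 probes per array on a linear scale as deposited by the authors, while the scanner software, scaling and background treatment behind them are not given in the sources used. A further table has 24 columns of per-array values whose names could not be tied to any sample, and it was left aside. The planned correction from detection p-values was therefore replaced by one from the signals alone.

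Background was corrected with the normexp model (offset 16), and the arrays were quantile normalized and taken to log2. A probe counted as above background past a limit that leaves a tail of 0.01 of the background, estimated from the low signals of its array. Probes above it on at least 2 of the 12 arrays were kept, and all 12 arrays were normalized together. Gene names came from the platform table (23978 probes with 1 symbol, 1719 unnamed here), and the probe with the highest mean over the 12 arrays stood for its gene. Differences were tested with limma 3.58.1 in R 4.3.3 in a linear model of age over the 12 samples with moderated variances (lmFit, eBayes), so that P10 and adults shared in the estimate of the spread, and called at a Benjamini-Hochberg adjusted p under 0.05. Errors after ± are standard errors of that fit, and the number of arrays limits their precision. The fit was tested on simulated data. Tables and figures were made with Python 3.11.15, pandas 2.3.3 and matplotlib 3.10.9.

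Members and gene lists were chosen with earlier results of these data known. The genes to name were the 15 largest rises and 15 largest falls without overlap between the groups, from each list the members with the 5 smallest p, and fixed markers of beta and other islet cells. Further list members are named as such, and Dnmt3b and those of the closing section were chosen after their values were seen. Alternatives were other background, scaling, filter and probe settings, array weights, a replicate block, only the 7 samples, a 1.5-fold minimum, an acinar term and leaving out each sample. Promoter sequences are RefSeq's for GRCm38.p6, used without mapping the probes to that build, and the genes of 1 chromosome were left out of the motif counts.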

Additional observations from a re-analysis of the deposited data

Results flagged for a closer look

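In 7 of 135 genes named in the text, 1 E18.5 sample stood far from the other 3, its gap to the nearest of them taking up more of the group's range than Dixon's 95% limit for 4 samples. Chance alone gives this in about 1 in 20 groups. E18.5 replicate 1 was the far sample in 4 of the 7. It was the highest in Nr1d1, at 6.88 beside 5.41 to 5.60 (share of the range 0.867), and in Cadps, at 8.25 beside 7.93 to 7.97 (0.859). It was the lowest in Slc2a2, at 9.64 beside 10.19 to 10.26 (0.889), and in Pdia4, at 8.95 beside 9.71 to 9.85 (0.839).

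E18.5 replicate 4 was the far sample in Nkx6-1, at 9.69 beside 10.10 to 10.11 (0.982), and in Pbk, at 8.80 beside 8.40 to 8.45 (0.872). E18.5 replicate 2 was the highest in Tcf19, at 7.64 beside 7.29 to 7.34 (0.87). Groups of 3, such as P1, are too small for this comparison.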

How the results depend on the processing

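Array weights raised the genes called from 503 to 1015 (483 higher, 532 lower), those also called between P10 and adults from 208 to 354, the mitosis falls from 14 to 25 and the ER folding falls from 7 to 12. A minimum of 1.5-fold left 225 calls (94 higher, 131 lower), 105 of them also called in adults. The acinar term, chosen after seeing the data, left 226 (115 higher, 111 lower), with 98 also called in adults, 4 mitosis falls and 4 clock rises. Median centring gave 149 higher genes, and the mean of a gene's probes gave 4 clock rises in place of 7. For the other settings that used all samples without a replicate block, the calls lay between 452 and 575, and the cause of these shifts was not tested.

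E18.5 and P1 share replicate numbers, but the deviations of same-numbered samples correlated at only 0.083, -0.045 and 0.097, so the numbers were not taken to pair the samples. With the replicate block, 217 genes were called (95 higher, 122 lower), 96 of them also in adults, with 4 mitosis falls and 4 clock rises.

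With each sample left out in turn, the calls ranged from 114 to 387, the higher genes from 60 to 184, the lower from 54 to 238 and those also called in adults from 55 to 188. The replication falls ranged from 13 to 30, mitosis falls from 0 to 25, ER folding falls from 3 to 9 and clock rises from 4 to 8. The lowest count came without P1 replicate 2 in each of these, with P1 replicate 1 giving the same 3 for ER folding. Every called gene that stayed in the test kept its sign in all settings run. Of 124 called genes followed one by one, 44 kept the call with any single sample left out, and 79 lost it without P1 replicate 2. Genes near background, such as Mcm7, and genes near the top of the scale, such as Ins2, can hide a difference.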

Other observations

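Some further groups of genes were drawn up after values were seen, so their counts are descriptions. Among all genes tested, 2.59% were called higher, 2.88% were called lower, and 4442 of 9198 differences lay above 0. Of 54 tested lysosome genes, 10 rose, 0 fell and 41 had differences above 0, with a median of 0.13. Psap, the precursor of the saposins that help to degrade sphingolipids, stood at 9.92, 10.08, 10.04 and 9.69 at E18.5 and at 10.43, 10.49 and 10.53 at P1 (0.55 ± 0.11, adjusted p = 0.011). Ctsf, a cysteine protease, and Cln6, a membrane protein whose loss causes a lysosomal storage disease, each rose 1.59-fold (adjusted p of 0.0075 and 0.0079). Neu1, a sialidase, and Npc2, which binds cholesterol, rose by 0.39 and 0.45 (adjusted p of 0.030 and 0.019). The count was 6 under median centring, 6 with the acinar term and 5 with the replicate block, and it fell to 3 without P1 replicate 2 and to 5 without E18.5 replicate 4 or P1 replicate 1. The call of Psap ended without P1 replicate 2 (adjusted p = 0.057), Npc2 lost its call without any of 3 samples and Neu1 without any of 5.

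Of 32 autophagy genes, 3 rose, 0 fell and 24 had differences above 0. Gabarapl2, whose product is coupled to the autophagosome membrane, went from 6.17, 6.30, 6.61 and 6.21 to 7.31, 6.94 and 7.0 (0.76 ± 0.13, adjusted p = 0.0066). Sqstm1, a cargo receptor, and Rragd, a GTPase of nutrient sensing at the lysosome, rose by 0.53 and 0.58 (adjusted p of 0.030 and 0.029), and each lost its call without any of 6 samples.

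A list of ion channel genes held 0 calls among 26 tested, with 13 differences above 0, 13 below and a median of -0.004. Another list, of sodium-conducting channel genes drawn up after values were seen, held 4 rises among the 5 tested of its 13 genes. Scnn1b, the beta subunit of the epithelial sodium channel, stood at 8.73, 8.28, 8.42 and 8.45 and then at 9.38, 9.37 and 9.32 (0.89 ± 0.14, 1.85-fold, adjusted p = 0.0050). The P1 samples nearly coincided and lay above all of E18.5. Scnn1g, the gamma subunit, rose by 0.45 (adjusted p = 0.034), a call that ended without any of the 7 samples, while Asic1 and P2rx4, channels opened by acid and by ATP, rose by 0.67 and 0.52 (adjusted p of 0.012 and 0.011), calls that ended without P1 replicate 2.

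Of 42 DNA repair genes, 9 fell, 2 rose and 35 had differences below 0, and the falls numbered 3 without P1 replicate 2. Blm, a helicase that resolves crossed strands, went from 6.66, 6.70, 6.59 and 6.95 to 6.21, 5.51 and 5.67 (-0.93 ± 0.16, adjusted p = 0.0066), and Rad54b, a recombination factor, fell 2.07-fold (adjusted p = 0.0078). Both calls ended without P1 replicate 2 (adjusted p of 0.058 and 0.052), while Msh6, a mismatch sensor, fell by 0.63 and kept its call (highest adjusted p of 0.048). Xpa, of nucleotide excision repair, and Apex1, of base excision repair, rose by 0.65 and 0.48 (adjusted p of 0.0070 and 0.031). The call of Apex1 ended without any of 5 samples.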
